A study of Homo sapiens with 32 samples.

Results

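The trefoil factor genes TFF1, TFF2 and TFF3 lie side by side on chromosome 21, and binding of the transcription factor HNF4α around them was read from 18 chromatin immunoprecipitation sequencing (ChIP-seq) peak lists of 3 human pancreatic ductal adenocarcinoma cell lines. The 3 genes are 3 of 20037 protein-coding genes in the RefSeq table of assembly GRCh38.p14. Their binding sites were chosen by the position of called peaks, as every peak whose summit lay within 50 kb of the span of a member gene. This rule took 7 of 337294 peaks, which merged into 6 sites and came from 4 of the 18 lists. The presence or absence of these peaks is therefore the measure that chose them, and it is given as a description without a test.

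Each of the 9 groups had 2 libraries. Panc10.05 and BxPC3 cells carried a doxycycline-inducible HNF4α isoform, either P1-α2 or P2-α8, and were mapped with an antibody against all HNF4α isoforms (the pan antibody). In BxPC3 the doxycycline dose was 500 ng/mL for either isoform. In Panc10.05 it was 25 ng/mL where P1-α2 was induced but 12.5 ng/mL where P2-α8 was, which ties dose to isoform. Both induced lines were read only with an isoform switched on, and lists of cells without an induced isoform were not analysed here. ASPC1 cells carried CRISPR interference, which holds a promoter silent through a guide RNA, with a guide against the P1 promoter of HNF4A (sgP1), a guide against its P2 promoter (sgP2) or a control guide (sgNC). The titles name 1 guide for each promoter. The pan antibody was used on each ASPC1 genotype, and a P1-specific antibody was used as well on sgNC and sgP2. The labels do not say whether the 2 libraries of a group came from separate cultures, and the lists hold no RNA or marker levels with which to check the cell lines.

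Trefoil factors are small secreted peptides built around the trefoil domain, a clover-shaped fold held by disulfide bonds. They are released with mucins onto epithelial surfaces, where they help to stabilise the mucus layer and to repair the epithelium. TFF1 is typical of the surface mucous cells of the stomach, TFF2 of gastric gland mucous cells and TFF3 of intestinal goblet cells, and the family is also known as a feature of the classical, more differentiated form of pancreatic cancer. HNF4α is a nuclear receptor of liver, gut and pancreas that binds DNA as a dimer and whose isoforms start at either the P1 or the P2 promoter of its gene.

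In the coordinates of the gene table, TFF3 spans 42311667 to 42315409, TFF2 spans 42346357 to 42350994 and TFF1 spans 42362282 to 42366535 on chromosome 21. The cluster covers 54.9 kb, with 30.9 kb between TFF3 and TFF2 and 11.3 kb between TFF2 and TFF1. The window of the rule, 50 kb beyond each end, spans 155 kb. It also reaches into ABCG1, a cholesterol exporter, on the TFF3 side, and covers TMPRSS3, a membrane serine protease, and the start of UBASH3A, a regulator of T cell receptor signalling, on the TFF1 side. The 3 trefoil genes are known to be transcribed towards lower coordinates, so that the higher end of each span is its 5′ end. The table holds no exons, so a position inside a gene is not assigned to an exon or intron here.

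**Figure D1:**
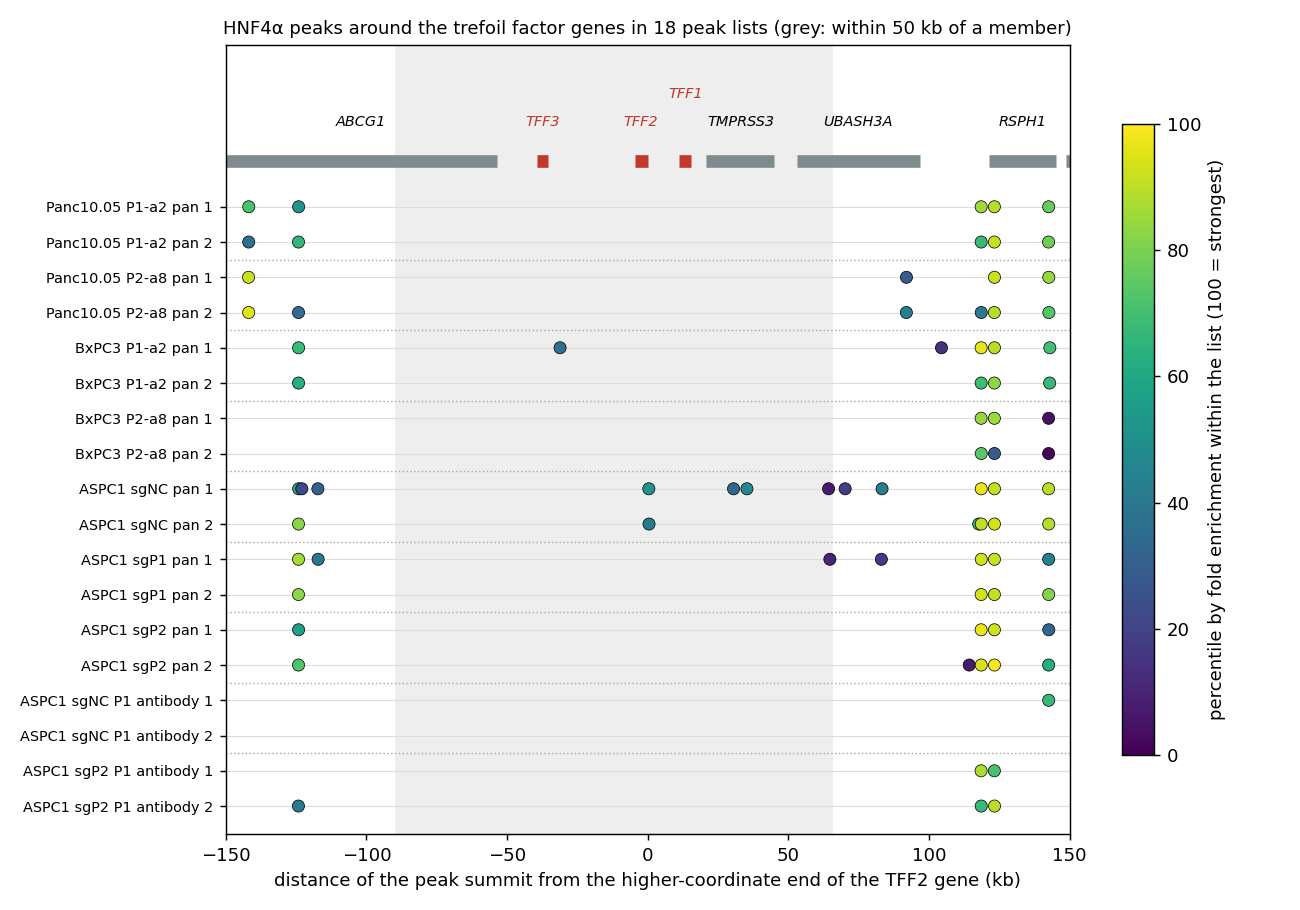
Peak summits (points) within 150 kb of the higher-coordinate end of TFF2, with distance in kb on the horizontal axis and 1 row for each of the 18 lists, 2 per group; colour gives the percentile by fold enrichment within the list, and bars at the top mark protein-coding genes (trefoil factors in red). The grey window holds 7 points, 4 of them in the first ASPC1 sgNC list of the pan antibody, while columns of points recur across lists at both outer sides.

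Few HNF4α peaks were called at the trefoil cluster, and 14 of the 18 lists held none within 50 kb. The 4 lists with a peak were both ASPC1 sgNC pan lists, with 4 peaks in replicate 1 and 1 in replicate 2, ASPC1 sgP1 pan replicate 1 with 1 peak, and BxPC3 P1-α2 replicate 1 with 1 peak. Of the 6 sites, 1 was present in both lists of a group and 5 were present in 1 list. TFF1 had a peak within 50 kb in 4 of 18 lists, TFF2 in 3 and TFF3 in 3. The median distance to the nearest summit over the 18 lists was 103 kb for TFF1, 119 kb for TFF2 and 84.8 kb for TFF3.

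The replicated site lay beside TFF2, in both ASPC1 sgNC lists of the pan antibody and in none of the other 16 lists. In replicate 1 the peak ran from 42351126 to 42351527 on chromosome 21 with its summit at 42351395. In replicate 2 it ran from 42351366 to 42351637 with its summit at 42351463. The summits were 68 bp apart, and the peaks shared 162 bp, which is 40.3% of the replicate 1 peak and 59.6% of the replicate 2 peak. The merged site begins 131 bp beyond the end of the TFF2 span, on its 5′ side, and ends 655 bp before LOC105372815, a long noncoding RNA gene that overlaps TFF1.

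Strength is given as the authors' fold enrichment and as its rank within the same list, where a percentile of 100 is the strongest peak. In sgNC replicate 1 the TFF2 peak had a fold enrichment of 6.91 and a −log10 q of 10.8, and ranked 11771 of 24295 peaks (percentile 51.2). In sgNC replicate 2 it had a fold enrichment of 6.08 and a −log10 q of 7.96, and ranked 8897 of 15118 (percentile 40.8). The mean percentile was 46.0 ± 7.40 (SD, n = 2). It was thus a mid-ranking peak in both lists. Among the 13688 regions present in both sgNC lists, whose median mean percentile was 60.6, 32.1% ranked lower than this site.

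No sequence of the TFF2 site itself is shown. The nearest stretch in the RefSeq promoter table is the window before the start of LOC105372815 (GRCh38.p14, chr21:42352043-42352292, plus strand), which begins 405 bp after the end of the site. It is shown because it is the sequence closest to the replicated peak, and it overlapped a peak in 0 of the 18 lists. It consists largely of a short repeat, with 11 copies of CTCCAGG in 250 bases. Of 35116 promoter windows, 1 held as many copies, namely this window. The repeat unit was picked after the sequence was seen, and whether the repeat touches the peaks called next to it was not tested.
LOC105372815: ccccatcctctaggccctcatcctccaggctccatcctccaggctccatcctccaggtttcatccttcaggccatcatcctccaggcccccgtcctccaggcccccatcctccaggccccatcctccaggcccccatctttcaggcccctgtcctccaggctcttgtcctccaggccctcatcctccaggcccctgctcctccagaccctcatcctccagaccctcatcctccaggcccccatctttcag

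The question put to ASPC1 is how silencing the P1 or the P2 promoter changes binding. The TFF2 site was present in both sgNC lists and in none of the 4 pan-antibody lists of sgP1 and sgP2. The nearest summit to TFF2 in sgP1 lay at 64.8 kb in replicate 1 and at 119 kb in replicate 2. In sgP2 these distances were 119 and 114 kb. Around TFF2, then, both knockdown genotypes lacked a peak over a stretch in which both control lists had one. A comparison of 2 lists with 2 has no test here, since peaks chose the site.

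The same pattern was not rare among all regions. Of the 26867 merged regions of the sgP1 and sgNC lists, 8.97% were in both sgNC lists and neither sgP1 list, and 0.409% were the reverse. Of the 27043 regions of the sgP2 and sgNC lists, 7.20% were in both sgNC lists and neither sgP2 list, and 0.407% were the reverse. Of the regions in both sgNC lists, 7.99% were in none of the 4 knockdown lists, and these had a median mean percentile of 30.0. At the trefoil cluster the counts were 1 site for sgNC over sgP1, 1 for sgNC over sgP2, and 0 in each reverse direction. Between sgP1 and sgP2 the cluster had 0 sites of either genotype alone, beside 2.75% of 20473 regions for sgP1 and 4.32% for sgP2.

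The TFF2 peaks can be set beside the thresholds and lengths of the lists. The knockdown lists held 11686 to 15116 peaks. They reached a −log10 q of just above 2, and 25.7% to 31.5% of their peaks had a −log10 q below the 7.96 of the weaker sgNC peak at TFF2. When the pan-antibody lists of ASPC1 were cut to an equal 11686 peaks by fold, the TFF2 peak was lost from sgNC replicate 1, where it ranks 11771, and kept in replicate 2. When peaks needed a −log10 q of 8 or more, it was kept in replicate 1 and lost from replicate 2. Under either setting the cluster had 0 sites in both sgNC lists.

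Counted by gene, TFF2 and TFF3 each had a summit within 50 kb in both sgNC lists and in none of the 4 knockdown lists, a pattern shown by 1.33% of all protein-coding genes. TFF1 did not show it, because sgP1 replicate 1 had a peak 49.2 kb from it. The 3 genes share the TFF2 site, so they are not separate observations.

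The other sites of the cluster were each found in 1 list. BxPC3 P1-α2 replicate 1, the longest of the 4 BxPC3 lists with 41808 peaks, had a peak from 42319555 to 42320572 on chromosome 21. Its summit lay 4.42 kb from the 5′ end of TFF3, the closest peak to that gene in any list. It had a fold enrichment of 9.97 and a −log10 q of 23.9, and ranked 26310 (percentile 36.8). At 1018 bp it was also the widest peak of the window. BxPC3 P1-α2 replicate 2, with 33737 peaks, had no summit within 50 kb of a trefoil gene, and its nearest summit to TFF2 was 119 kb away.

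The first sgNC list, the longest of the ASPC1 lists, had 3 further peaks beyond TFF1. A pair lay inside TMPRSS3. One of them, 42381322 to 42381657 on chromosome 21, had its summit 15.0 kb from TFF1 at percentile 32.5. The other, 42386144 to 42386446, had its summit 19.7 kb from TFF1 at percentile 47.6. The last, 42415106 to 42415396 inside UBASH3A, had its summit 48.8 kb from TFF1 at percentile 7.11. A peak of sgP1 replicate 1 lay close by, from 42415570 to 42415782, at percentile 9.77 and without overlap with the former. None of these 4 peaks had a counterpart in the second list of its group, which in both genotypes was the shorter list, and the part of list length in this was not tested.

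Just inside the limit of the rule were the UBASH3A peaks at 48.8 and 49.2 kb from TFF1. Just outside it was a peak of sgNC replicate 1 at 54.7 kb from TFF1 (percentile 17.7), and, at 77.9 kb from TFF3 on the other side, a site inside ABCG1 in sgNC replicate 1 (percentile 30.4) and sgP1 replicate 1 (percentile 39.8).

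In the induced lines the question is whether P1-α2 and P2-α8 occupy different sites. The trefoil cluster gave 0 sites in both lists of any of the 4 induced groups. Panc10.05 had no peak in the window in any of its 4 lists, although these held 24828 to 39111 peaks. Its cluster therefore had 0 sites of P1-α2 alone and 0 of P2-α8 alone, beside 3.64% and 10.9% of 49247 regions in that line. BxPC3 likewise had 0 and 0, beside 28.2% of 47225 regions for P1-α2 alone and 0.129% for P2-α8 alone. The single BxPC3 peak near TFF3 was thus not repeated in the second P1-α2 list, and the P2-α8 lists, with 12681 and 14666 peaks, had none.

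The P1-specific antibody gave no peak within 50 kb of a trefoil gene in either sgNC or sgP2. The cluster had 0 sites of one genotype alone, beside 36.0% of 6274 regions for sgP2 over sgNC and 0.0638% for the reverse. The sgNC lists of this antibody held only 697 and 260 peaks, and 2.31% of genes had a summit within 50 kb in both, so few genes could be compared there. The sgP2 lists held 5200 and 3916 peaks, with 23.7% of genes reached in both.

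The emptiness of the cluster can be read against other genes. A summit within 50 kb in both lists was found for 74.5% of protein-coding genes with Panc10.05 P1-α2, 79.5% with Panc10.05 P2-α8, 76.6% with BxPC3 P1-α2 and 45.4% with BxPC3 P2-α8. With the pan antibody in ASPC1 it was found for 58.5% in sgNC, 50.6% in sgP1 and 52.0% in sgP2. The trefoil genes numbered 3 of 3 in sgNC and 0 of 3 in each of the other 8 groups. The 3 of 3 rest on the TFF2 site, which the genes share, and are 1 observation. Longer genes have a wider window, and the trefoil spans are only 3.74 to 4.64 kb long. Shares for genes of like length were not computed. The ASPC1 lists start at a −log10 q of 2 and those of the induced lines at 8, and at 8 or more sgNC too had 0 of 3. Within 10 kb, TFF2 alone had a summit in both sgNC lists. In sgNC replicate 1, TFF1 had 4 summits within 50 kb, a number reached by 26.8% of genes, TFF2 had 3 (37.4%) and TFF3 had 1 (71.9%). Over all lists the median gene had a summit within 50 kb in 11 of 18, while 13.8% of genes had one in 3 or fewer lists and 17.2% in 4 or fewer. TFF2 and TFF3 fall in the first of these shares and TFF1 in the second.

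**Figure D2:**
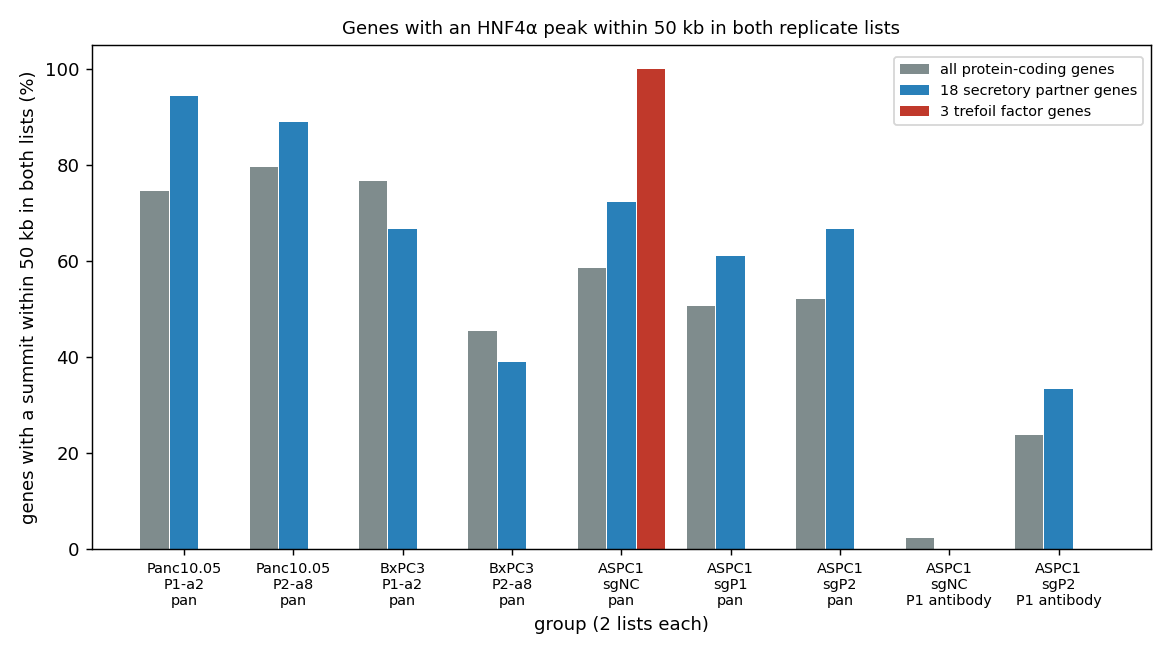
Share of genes (vertical axis, %) with a peak summit within 50 kb in both lists of each group (horizontal axis), for all protein-coding genes (grey), 18 secretory partner genes (blue) and the 3 trefoil factor genes (red). The red bar stands at 3 of 3 genes in ASPC1 sgNC with the pan antibody (0 of 3 at a −log10 q of 8 or more, where the Panc10.05 and BxPC3 lists start) and at 0 elsewhere, while the grey bars of the 7 pan-antibody groups lie between 45.4% and 79.5%. The 3 genes of the red bar share 1 site, beside TFF2, and are not separate observations.

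The nearest strongly shared binding lay outside the cluster on both sides. Towards TFF3, a site inside ABCG1 (chromosome 21, 42226405 to 42227207), 84.8 kb from TFF3, was present in 12 of 18 lists at percentiles from 34.6 to 86.4. It was in both lists of Panc10.05 P1-α2, BxPC3 P1-α2, and ASPC1 sgNC, sgP1 and sgP2 with the pan antibody. Towards TFF1, a site between UBASH3A and RSPH1 (42468381 to 42469981), 102 kb from TFF1, was present in 15 of 18 lists with a median percentile of 86.8. These were the first sites on either side to be found in at least 10 lists, a limit set after the values were seen. The stretch between them is 241 kb long. Both flanking sites were present in 12 lists, of which 8 had no summit within 50 kb of a trefoil gene and 6 had no peak anywhere between the flanks.

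The ABCG1 site was present in all 6 pan-antibody lists of ASPC1. Its percentiles were 61.5 and 82.1 in sgNC, 86.4 and 82.6 in sgP1, and 56.6 and 72.3 in sgP2. The sgNC values overlapped those of sgP2. Both sgP1 values lay above both sgNC values, by little in replicate 2 (82.6 and 82.1) and by more in replicate 1 (86.4 and 61.5). Ranked by −log10 p, the values of sgNC (70.4 and 76.9) and sgP1 (81.6 and 76.3) overlapped. Whether the genotypes differ at this site was not tested. In Panc10.05 its percentiles were 52.3 and 65.3 with P1-α2, and with P2-α8 it was present in replicate 2 alone at 34.6.

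Trefoil factors are secreted with mucins and other products of mucous and goblet cells, and 18 such partner genes were looked up in the same way. A median of 12 of 18 lists had a summit within 50 kb of a partner gene, and 15 of the 18 partners had one in more lists than TFF1. Over all protein-coding genes the median was 11 lists, and 17.2% of genes had a summit in 4 or fewer, the number of TFF1. By these counts the partners were close to genes at large. AGR3, CLCA1, MUC13, REG4 and ZG16 had one in 16 lists. AGR2, a disulfide isomerase needed for mucin folding, had one in 13. The partners with as few lists as the trefoil genes were GKN1 with 3 and GKN2 with 2, both secreted by gastric surface cells, and SPDEF with 3, a transcription factor of goblet cells.

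The classic mucin companions had a summit in more lists than the trefoil genes, in numbers near the median of 11 for all protein-coding genes. MUC5AC, the mucin secreted with TFF1 in the stomach, had a summit within 50 kb in 10 of 18 lists, MUC6, secreted with TFF2, in 11, and MUC2, secreted with TFF3 in the intestine, in 11. All 3 had one in both lists of each Panc10.05 group, where the trefoil genes had none. They also had one in both sgNC lists of the pan antibody, as the trefoil genes did. In sgP1 with this antibody, MUC2 had one in both lists, and MUC5AC and MUC6 each in 1 list. In sgP2, MUC2 and MUC5AC had one in both lists and MUC6 in 1 list. In BxPC3, MUC2 and MUC5AC had one in 1 P1-α2 list and in neither P2-α8 list. MUC6 had one in both P1-α2 lists and in 1 P2-α8 list. With the P1-specific antibody none of the 3 mucins had a summit. MUC2 and MUC5AC are neighbours and share peaks. GKN1 and GKN2 also had the same mean best percentile with Panc10.05 P1-α2 (43.7). The partners are therefore not all separate observations in the shares that follow. Of the 18 partners, 17 had a summit in both lists with Panc10.05 P1-α2 (94.4%, beside 74.5% of all protein-coding genes). With Panc10.05 P2-α8 it was 16 (88.9%, beside 79.5%). With BxPC3 P1-α2 it was 12 (66.7%, beside 76.6%), and with BxPC3 P2-α8 it was 7 (38.9%, beside 45.4%). With the pan antibody in ASPC1 the numbers were 13 for sgNC (72.2%, beside 58.5%), 11 for sgP1 (61.1%, beside 50.6%) and 12 for sgP2 (66.7%, beside 52.0%). For 10 partners a summit was in all 6 of these ASPC1 lists, a pattern whose share over all genes was not computed. For 0 partners was a summit in both sgNC lists and in none of the knockdown lists. That pattern was shown by 1.33% of all protein-coding genes, so its absence among 18 genes says little about the partners.

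**Figure D3:**
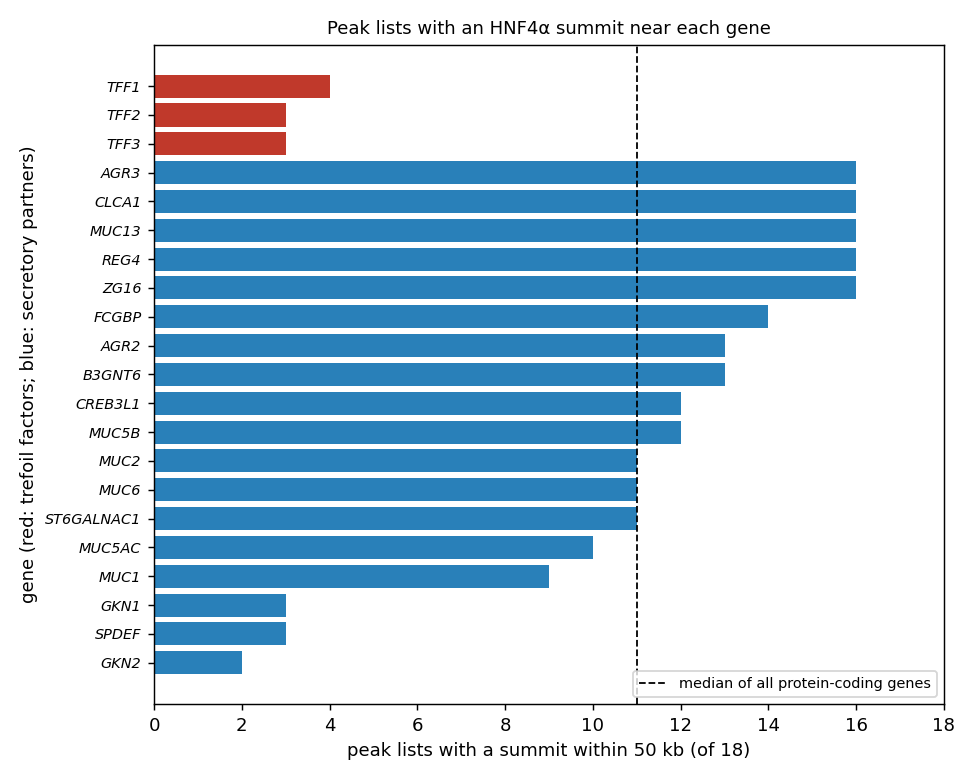
Number of peak lists, of 18, with a summit within 50 kb of each gene (horizontal axis), for the 3 trefoil factor genes (red) and 18 secretory partner genes (blue); the dashed line is the median of all protein-coding genes, 11. TFF1 stands at 4 and TFF2 and TFF3 at 3, with SPDEF, GKN1 and GKN2 at 3, 3 and 2 and the other 15 partners at 9 to 16.

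The promoter of MUC13, a transmembrane mucin, is shown because it held a summit in 15 of 18 lists, at percentiles from 7.63 to 94.2. Its bases before the gene start (GRCh38.p14, chr3:124934752-124935001, minus strand) carry the HNF4 motif CAAAGTCCA in reverse, marked in capitals, from position 200 of 250. This motif was searched on both strands and is present in 0.384% of 35116 promoter windows of 300 bases. CAAAGTNCA, which includes it, is present in 1.10% of them. Of the 12 partner genes in the table, MUC13 was the only one with either motif. Neither was found in the LOC105372815 window beside TFF2. Motifs this rare are absent from most windows, and that window overlapped no peak, so their absence there says nothing about the trefoil cluster. A match is a description of letters, not of binding. The share of promoters with a summit in as many lists as that of MUC13 was not computed. The promoters of TFF1, TFF2 and TFF3 were not analysed here.
MUC13: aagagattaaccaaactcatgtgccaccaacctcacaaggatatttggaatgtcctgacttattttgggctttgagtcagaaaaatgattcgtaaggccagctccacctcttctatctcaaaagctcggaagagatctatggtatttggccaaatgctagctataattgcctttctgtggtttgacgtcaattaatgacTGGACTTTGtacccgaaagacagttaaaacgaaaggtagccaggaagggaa

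Genes on other chromosomes with a pattern most like that of the trefoil cluster were ranked by Pearson correlation over the 18 lists of the best percentile within 50 kb, with 0 where no summit was present. The lists differ in length and share cells, so the correlation is a description. Of 18667 genes compared, TMEM106A on chromosome 17 was first (r = 0.941). Its best percentiles were 74.4 and 47.4 in the sgNC pan lists and 32.3 in BxPC3 P1-α2 replicate 1, and it also had peaks of low rank in Panc10.05. KRTAP4-12, KRTAP4-6, KRTAP4-5 and KRTAP4-4, neighbouring keratin-associated protein genes that share their peaks, followed among 6 genes tied at r = 0.925. They had peaks at percentiles 39.1 and 33.6 in sgNC and 22.4 in BxPC3 P1-α2 replicate 1, and in sgP1 a peak at percentile 18 in replicate 2, where the cluster had its peak in replicate 1. No gene on another chromosome matched the cluster in presence and absence over all 18 lists, but 101 of the genes compared matched it in 16 or more. TMEM106A, first by correlation, matched it in 13.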

How the data were processed

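ChIP-seq peak lists of 18 immunoprecipitated libraries were used. The 14 input libraries were not analysed here. Groups followed the labelled line, genotype and antibody. For BxPC3 P2-α8 the titles name P1 with α8, and the genotype label was used. Bowtie2 2.2.9, MACS2 2.2.7 and the builds hg38 and mm10 are named in the submitters' processing notes, without roles, and the control used for calling is not given in the sources used here. Each deposited list holds 1 library, with a fold enrichment as a linear ratio, p and q as −log10 values and an integer score close to 10 times the −log10 q, all the authors' own. Fold enrichment and p were ranked only within a list, while the −log10 q also served as a common threshold across lists. Sequencing depth is unknown, which leaves no basis for counting intervals. Peaks in Panc10.05 and BxPC3 start at a −log10 q of 8.00 to 8.04 and those in ASPC1 at 2.00 to 2.02, and list lengths of the lines are therefore not compared.

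Peaks merged when they overlapped by at least 1 bp. Coordinates are 1-based and those of the lists. Spans came from the RefSeq table of GRCh38.p14. As a check, more summits lay within 1 kb of a gene end (5.33% to 18.8%) than after a shift of 100 kb (3.46% to 4.88%) in 18 of 18 lists. Motifs were searched in the RefSeq promoter table on both strands: CAAAGTCCA for HNF4, its looser form CAAAGTNCA, TGTTTAC for forkhead factors, AGATAA for GATA factors, and a direct repeat of nuclear receptors. The forkhead motif was in 3.42% of windows and no partner, the GATA motif in 10.3%, with AGR2 and REG4 among the partners, and the direct repeat in 0.0228% and no partner. Calculations used Python 3.11.15, numpy 2.4.6 and scipy 1.17.1, and peak merging was tested on simulated lists and against bedtools 2.31.1. No test was run on the sites, since peaks chose them. Named were the members, all sites within 50 kb, their neighbours, the partner list and the 5 genes most alike. The members and lists were chosen with earlier results of these data known. Alternatives were windows of 10 and 100 kb, a −log10 q of at least 8, equal list lengths, merging by summits within 100 bp, ranks by −log10 p and leaving out each library.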

Additional observations from a re-analysis of the deposited data

How the results depend on the processing

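Of 171 alternative counts of trefoil sites, 149 stayed within 1.5 times the count as reported and 22 did not. The 149 are no measure of stability. Only the counts of sgNC, alone and against sgP1 or sgP2, were reported above 0. A window of 10 kb, a −log10 q of at least 8 and equal list lengths only remove peaks, so the counts of 0 could not rise under them. With a window of 100 kb, which adds the ABCG1 and UBASH3A sites, 1 site was in both lists of Panc10.05 P1-α2, Panc10.05 P2-α8, BxPC3 P1-α2, sgP1 and sgP2, 2 sites were in both sgNC lists, and 1 site each was of Panc10.05 P2-α8 and of BxPC3 P1-α2 alone. Keeping only peaks with a −log10 q of 8 or more, and likewise cutting to equal list length, gave sgNC 0 sites in both lists and 0 against sgP1 or sgP2. A window of 10 kb and merging by summits within 100 bp left every count of sites unchanged. Leaving out a library gave sgNC 1 to 4 sites, alone and against sgP1 or sgP2, the 4 being without replicate 2. It gave BxPC3 P1-α2 0 to 1, alone and against P2-α8 (1 without replicate 2), and sgP1 0 to 1, alone and against sgNC or sgP2 (1 without replicate 2). The mean percentile of the TFF2 peak in sgNC (46.0) was 35.3 by −log10 p, 30.2 with a −log10 q of at least 8, where replicate 1 alone holds it, and 40.8 to 51.2 when a library was left out. Within 10 kb, the shares of genes with a summit in both lists fell to 23.6% to 56.5% in the pan-antibody groups. The trefoil genes with one in both sgNC lists fell from 3 of 3 to 1 of 3, TFF2, and TFF1 went from 4 lists to 0, TFF2 from 3 to 2 and TFF3 from 3 to 1. No paired analysis was possible because the results come from no test. Unknown depth and 2 libraries a group limit every absence: a peak missing from a list may lie below its threshold.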

Other observations

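Beyond 50 kb, UBASH3A held a further site (chromosome 21, 42442806 to 42443124), 76.4 kb from TFF1. It was present in both Panc10.05 P2-α8 lists at percentiles 28.8 and 41.9 and in none of the other 16 lists. Of 49247 regions in that line, 10.9% were likewise in both P2-α8 lists and neither P1-α2 list. The share of regions absent from all other 16 lists was not computed. A second UBASH3A site (42433839 to 42434494) was in sgNC replicate 1 at percentile 42.4 and in sgP1 replicate 1 at percentile 16.7. RSPH1, a radial spoke gene of cilia 108 kb beyond TFF1, held a site (42473807 to 42474750) in 16 of 18 lists with a median percentile of 90.2, the absent lists being both of sgNC with the P1-specific antibody. With that antibody, both sgP2 lists had a peak at the site before RSPH1 described above, at percentiles 87.7 and 67.2, while neither had one at the trefoil genes. In these lists 33.2% and 27.1% of protein-coding genes had a summit within 50 kb, so having none was the more common state in each.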
